A study of Mus musculus with 2 samples.

Results

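The genes described are 10 members of the MHC class I antigen presentation pathway (B2m, H2-K1, H2-D1, Tap1, Tap2, Tapbp, Erap1, Calr, Canx and Nlrc5). They were taken by symbol from the 43346 gene rows of the deposited tables, and all 10 were found among the 21474 rows that matched a protein-coding gene. The symbols, and no cut in measured values, chose them, though earlier results of these data were known. Poly(A) RNA was sequenced from G1E-ER4, an immortalized mouse erythroid line, male and of postnatal stage by its labels. The line lacks a functional Gata1 gene of its own and carries a fusion of GATA1 with the estrogen receptor that estradiol activates. All cells had received 10 nM 17beta-estradiol for 30 h, and the 2 libraries, biological replicates 1 and 2, form 1 group. No untreated library was analysed here, so the values describe this state of 1 cell line and give no effect of estradiol. The labels do not say how the cultures were separated, so the spread between the libraries may be technical.

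MHC class I molecules carry peptides made inside the cell to the surface, where cytotoxic T cells read them and natural killer cells sense their absence. Proteasomes cut the peptides, and TAP1 and TAP2 pump them as a dimer into the endoplasmic reticulum, where ERAP1 trims them. There the heavy chain, encoded in the mouse by the classical genes H2-K1 and H2-D1, pairs with beta-2-microglobulin and is loaded with help from calnexin, calreticulin and tapasin. NLRC5 is the transactivator of class I genes, and interferons raise many genes of the pathway. Maturing human erythroid cells are known to lose class I from their surface, and mature human red cells carry little of it.

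RefSeq promoter windows are shown first, because the classical heavy chain genes differed in level while their windows were alike. RefSeq windows of 300 bases (GRCm38.p6, 250 bases before the start and 50 after) were available for 8 of the 10 genes. Capitals mark matches, on either strand, to 5 motifs. These are CCAAT, the box that the factor NF-Y binds, TGACG, the core of CRE-like boxes, and GAAANNGAA, an interferon-type repeat. The others are GATAA, a form of the site read by GATA factors, and a second spacing of the repeat, GAANNGAAA. This second spacing was added after the windows were read. Both spacings of the repeat can overlap, and reversed letters are minus-strand matches. The H2-K1 line is the 250 bases at chr17:34000348-34000597 on the minus strand, and the B2m line is chr2:122147437-122147686 on the plus strand. The other lines are 30-base stretches around a match: H2-D1 at chr17:35262934-35262963, chr17:35262981-35263010 and chr17:35263029-35263058, Tap1 at chr17:34187322-34187351 and chr17:34187458-34187487, and Tapbp at chr17:33919431-33919460, all on the plus strand.
H2-K1: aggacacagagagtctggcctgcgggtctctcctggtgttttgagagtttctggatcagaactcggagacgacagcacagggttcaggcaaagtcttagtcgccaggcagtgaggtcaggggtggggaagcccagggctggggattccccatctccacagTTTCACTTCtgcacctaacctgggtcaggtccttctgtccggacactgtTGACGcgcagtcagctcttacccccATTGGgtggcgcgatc
B2m: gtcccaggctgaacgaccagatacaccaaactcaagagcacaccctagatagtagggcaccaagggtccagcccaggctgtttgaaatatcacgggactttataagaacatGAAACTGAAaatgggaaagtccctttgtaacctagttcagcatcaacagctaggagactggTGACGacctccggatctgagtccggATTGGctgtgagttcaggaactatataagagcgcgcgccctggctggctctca
H2-D1, GAANNGAAA: atctcctcagTTTCACTTCtgcacctaacc
H2-D1, TGACG: ccgggacactgaTGACGcgctggcaggtct
H2-D1, CCAAT: agattccaggagCCAATcagcgtcgccgcg
Tap1, CCAAT: gggctcggctttCCAATcagcggctgcgcg
Tap1, TGACG: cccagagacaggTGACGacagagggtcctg
Tapbp, GATAA: ggagtctaggctGATAAagggctcaaagtt

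The H2-D1 window matched that of H2-K1 at 88.3% of 239 aligned bases, and at 87.7% of 253 bases for a window at the other RefSeq start of H2-K1. The H2-D1 window (chromosome 17, 35262844 to 35263143) lies inside the annotated gene, which starts at 35262730. It thus lies after the annotated start, and which start the cells used was not tested. The stretch around GAANNGAAA was identical at 29 of 30 bases between H2-D1 and H2-K1, and that around TGACG at 24 of 30. CCAAT was found in 7 of the 8 windows, those of all but Erap1, against 37.4% of 32851 RefSeq windows. TGACG was found in 5 (B2m, Canx, H2-D1, H2-K1 and Tap1) against 20.8%. GAAANNGAA was found in B2m and Erap1 against 8.56%, and GATAA in Tapbp alone against 25.4%. The Tapbp window (33919228 to 33919527) lies inside the annotated gene, which starts at 33915899, and reaches into the gene Zbtb22, which ends at 33919325. The Erap1 window (74639603 to 74639902) also lies inside its annotated gene, which starts at 74639568. Other forms of the GATA site were not searched. GAANNGAAA was found in H2-D1 and H2-K1 against 7.52%. It was added after reading these windows, which are alike, so this share is no independent comparison. The counts for the other motifs found in both H2-D1 and H2-K1 also include these alike windows separately. Those counts are thus no independent comparison with the RefSeq shares either. The shares also take no account of how the motifs were chosen. The genes with TGACG thus included B2m, H2-D1 and Canx, which were expressed, and H2-K1 and Tap1, which were near the bottom of the order given next. A match is a description of letters in these windows and shows no bound factor.

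The pathway was expressed in part. Tapbp, Calr, H2-D1, B2m, Tap2 and Canx reached at least 1 TPM in both libraries, whereas H2-K1, Tap1, Erap1 and Nlrc5 did not. TPM is the deposited length-corrected abundance, scaled to the same total in each library. The count of 6 of 10 genes stands beside 35.3% of all 21474 protein-coding genes that reached this level (7570 genes). The median over the 10 genes was 4.53 on the log2(TPM + 1) scale, and 0.02 over all protein-coding genes. In these bulk libraries fewer cells expressing a gene and less RNA per cell cannot be told apart.

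**Figure D1:**
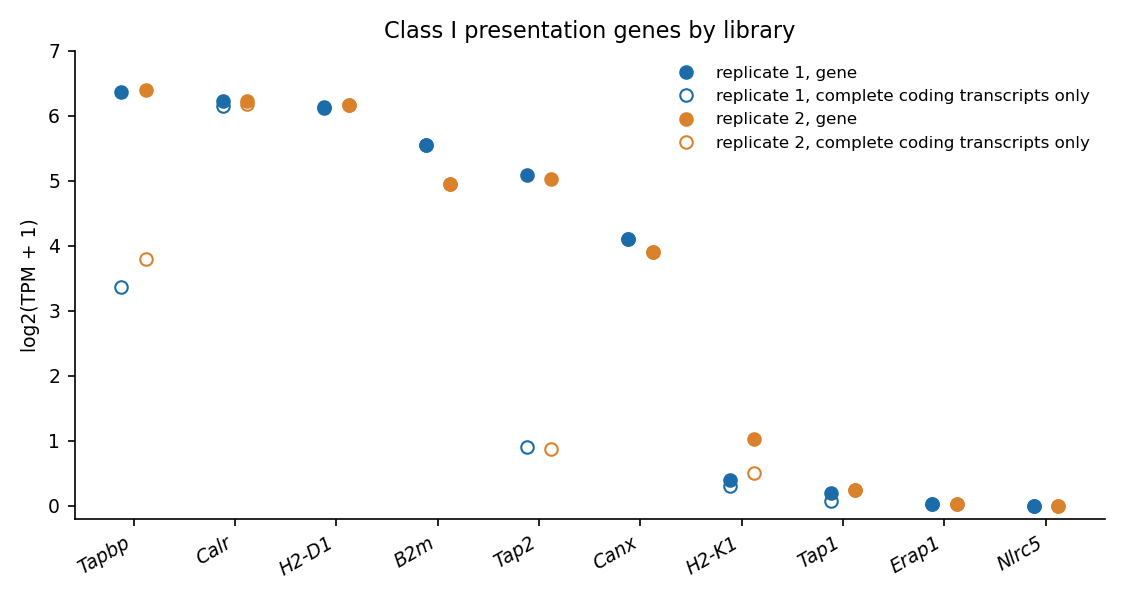
Level of each class I presentation gene on the log2(TPM + 1) scale (vertical axis) by gene (horizontal axis) in replicate 1 (blue) and replicate 2 (orange). Filled points are the gene, and open points the sum over transcripts with a complete coding sequence, hidden where both are the same. The filled points of 6 genes lie at 3.9 or above and those of 4 genes near or below 1. The open points of Tap2 lie near those of H2-K1.

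Among the heavy chain genes, H2-D1 (chromosome 17, 35262730 to 35267499, plus strand) stood at 69.40 and 70.65 TPM in replicates 1 and 2, from 10006 and 7796 expected counts. H2-K1 (chromosome 17, 33996017 to 34000347, minus strand) had 0.31 and 1.03 TPM, from 34 and 58 counts. The level of H2-D1 was 224 times that of H2-K1 in replicate 1 and 68.6 times in replicate 2. Both libraries placed H2-D1 far above H2-K1. The size of the ratio moved with the few H2-K1 counts and with their split among transcript models. H2-K1-206, an 871-base incomplete coding model, held 0% of the H2-K1 TPM in replicate 1 and 58.82% in replicate 2. From complete coding transcripts H2-K1 had 0.23 and 0.42 TPM. On the log2(TPM + 1) scale H2-K1 was lower by a mean log2 ratio of -5.44 (moderated SE 0.159, limma, adjusted p = 1.46e-07, n = 2). The libraries gave -5.75 and -5.14 (SD 0.429). Of 8004 genes in that fit, 93.4% differed from H2-D1, so a call alone is common and the size is the result. Heavy chain genes are close copies of each other. The posterior SD of the estimated counts was 3.59 and 2.87 for H2-D1 and 0 and 0.12 for H2-K1, which does not cover reads placed on a wrong gene model.

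Of 27 measured class I heavy chain and class I-like genes, 3 reached 1 TPM in both libraries and 12 had no counts. After H2-D1 these were H2-T23, the Qa-1 heavy chain that presents leader peptides to natural killer cells, with 4.85 and 4.92 TPM, and the non-classical H2-T22 with 3.09 and 3.04 TPM. As gene totals, H2-D1 was 14.3 and 14.4 times H2-T23. From complete coding transcripts the order turned, with H2-T23 at 1.61 and 1.55 TPM below H2-T22 at 3.04 and 2.85 TPM, and H2-D1 kept 68.84 and 70.57 TPM. The median of this list was 0.005 TPM. Its lowest members, with 0 counts in both libraries, included Azgp1 and Hfe, the class I-like regulator of iron uptake.

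B2m (chromosome 2, 122147686 to 122153083, plus strand), the light chain shared by all classical class I molecules, stood at 45.92 and 29.83 TPM in replicates 1 and 2, from 2413 and 1175 counts. H2-D1 exceeded B2m in both libraries, 1.51 and 2.37 times. B2m exceeded H2-K1 by 4.54 (SE 0.554) on the log2(TPM + 1) scale (limma, adjusted p = 9.60e-16, n = 2), in a fit where 83.1% of 8004 genes differed from H2-K1. The libraries gave 5.16 and 3.92 (148 and 29.0 times in TPM), and a pseudocount of 0.1 gave a mean of 5.77.

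Nlrc5 (chromosome 8, 94434356 to 94527272, plus strand) had 0 counts in both libraries. With 3 counts as the limit that a count of 0 allows, this is at most 0.0407 and 0.0535 CPM (counts scaled to library size). Of the 24 listed regulators of class I genes, 19 passed 1 TPM in both, and the list's median was 10.7 TPM. The highest were Atf1, a factor that binds CRE-like boxes, with 68.84 and 71.28 TPM, Rfxap, a subunit of the RFX complex on X boxes, with 64.27 and 67.37 TPM, and Irf3 with 61.57 and 67.51 TPM. These are gene totals. From complete coding transcripts Atf1 had 25.07 and 25.93 TPM, Rfxap 17.75 and 18.39 TPM and Irf3 4.61 and 6.48 TPM, and the NF-kB subunit Rela was highest with 48.30 and 48.14 TPM. The other RFX subunits, Rfx5 (2.64 and 3.49 TPM) and Rfxank (11.22 and 8.78 TPM), were also above 1 TPM. Those below were Nlrc5, its class II counterpart Ciita, Irf1, Irf8 and Nfkb1. Irf1, an interferon-induced activator of class I genes, had 2 counts and 1 count.

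For peptide transport, Tap1 (chromosome 17, 34187553 to 34197225, plus strand) stood at 0.14 and 0.18 TPM in replicates 1 and 2, from 13 and 28 counts. Tap2 (chromosome 17, 34203527 to 34216321, plus strand), its partner in the transporter, had 33.03 and 31.66 TPM, from 3176 and 2644 counts. As gene totals, Tap2 stood 236 and 176 times above Tap1. Tap1 was lower by a mean log2(TPM + 1) ratio of -4.85 (SE 0.0762, limma, adjusted p = 2.98e-08, n = 2), where 89.8% of 8004 genes differed from Tap2.

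The Tap2 total rested mostly on transcript models without a complete coding sequence. Tap2-202, annotated as a retained intron and 2561 bases long, held 45.16% of the gene's TPM in replicate 1 and 53.71% in replicate 2. Tap2-204, a 378-base incomplete coding model, held 52.19% and 43.65%. The complete coding transcript Tap2-201, 3442 bases long, held 2.64% and 2.63%. In expected counts, which are not divided by length, Tap2-202 held 84.2% and 87.9%, Tap2-201 6.74% and 5.90%, and Tap2-204 9.02% and 6.17%. Most Tap2 reads were therefore assigned to Tap2-202 in both libraries, while 286 and 163 counts on the 378-base model gave 17.24 and 13.82 TPM, near the 14.92 and 17.00 TPM of Tap2-202.

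By annotation, 2399 of the 2561 bases of Tap2-202 are also exonic in Tap2-201, and 162 are not. Its first exon has 57 bases, and that of Tap2-201 has 1097. All 378 bases of Tap2-204 are exonic in Tap2-201. The split between these models is an estimate, and the deposited posterior SD of the counts was 18.03 and 15.80 for Tap2-202 and 19.5 and 17.2 for Tap2-201. Counting only transcripts with a complete coding sequence, a setting chosen after the shares were seen, Tap2 had 0.87 and 0.83 TPM and Tap1 0.05 and 0.18 TPM. The ratio of Tap1 to Tap2 was then -0.73 on the log2(TPM + 1) scale (limma, adjusted p = 6.26e-05). Tap1 itself had no stable leading transcript. Its 13 counts in replicate 1 fell on Tap1-203 (65.79% of TPM) and Tap1-201 (34.21%), and its 28 counts in replicate 2 all on Tap1-206.

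**Figure D2:**
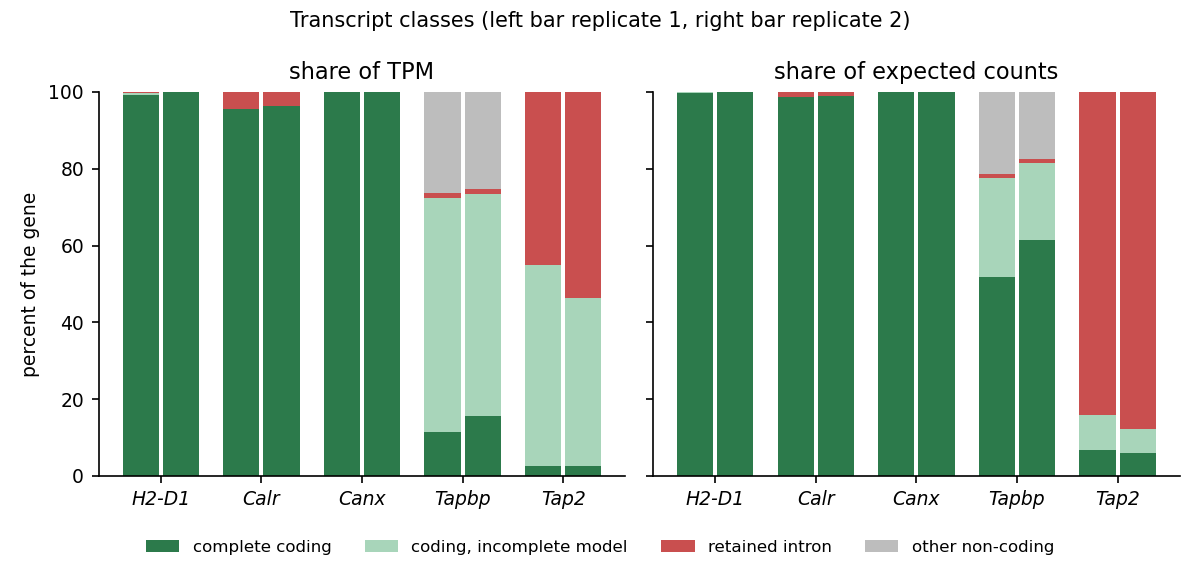
Percent of each gene (vertical axis) held by annotated transcript classes for 5 genes (horizontal axis), by TPM at left and by expected counts at right. The left bar of each couple is replicate 1 and the right bar replicate 2. Complete coding transcripts (dark green) hold over 95% of H2-D1, Calr and Canx, and 2.6% of the TPM of Tap2, where the retained intron model (red) holds 84.2% and 87.9% of the counts.

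The genes beside the transporter genes, taken after their values were seen, are shown by their distance from the Tap1 start. Within 300 kb on either side, 35 protein-coding genes start, of which 16 reached 1 TPM in both libraries and 19 did not. As a gene total, Tap2 was the one gene above that level in a run of low genes. It had 5 low genes directly before it (H2-DMb2, H2-DMb1, Tap1, Psmb9 and Psmb8) and 9 after it up to Btnl4. From complete coding transcripts Tap2 had 0.87 and 0.83 TPM, below that level. The nearest expressed gene on the other side of Tap1 was Brd2, a bromodomain protein, with 141.96 and 151.73 TPM. The class II genes of the region, such as H2-Ab1 with 0.04 and 0.17 TPM, were low. H2-K1 lay between expressed genes, Rps18 at 194.83 and 101.78 TPM and Ring1 at 33.95 and 43.68 TPM.

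**Figure D3:**
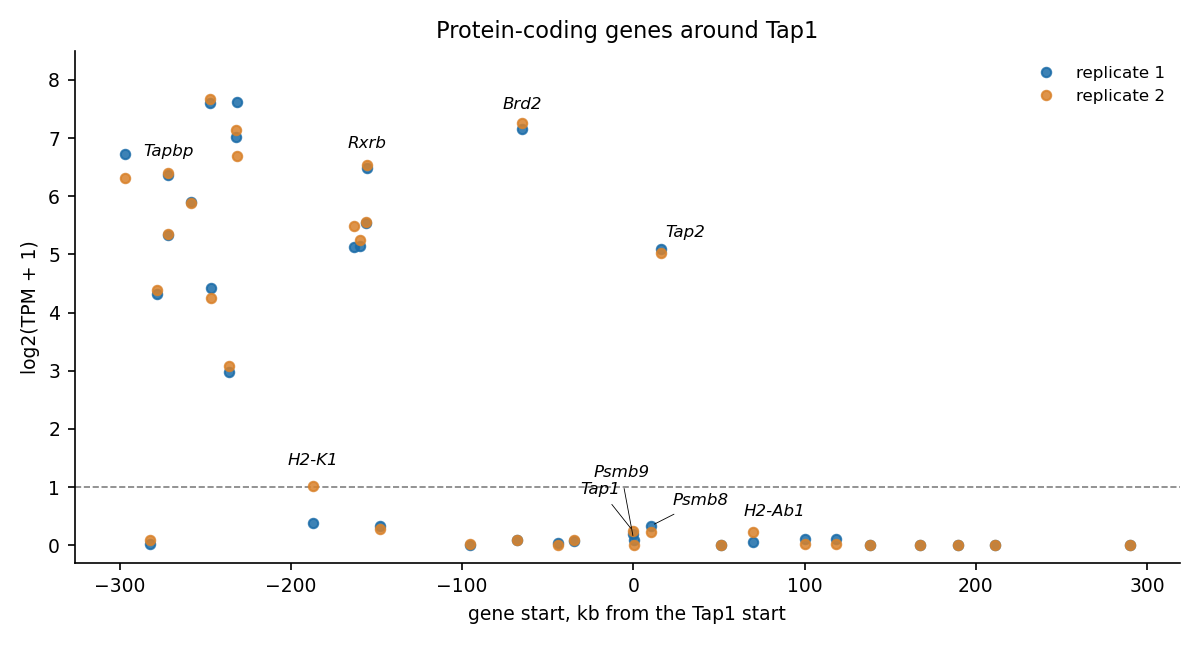
Level of the 35 protein-coding genes whose start lies within 300 kb of the Tap1 start, on the log2(TPM + 1) scale (vertical axis), against that distance in kb (horizontal axis, negative values before Tap1), in replicate 1 (blue) and replicate 2 (orange). The dashed line is 1 TPM. Levels are gene totals. Right of Brd2, Tap2 is the one gene above the line, which it does not reach from complete coding transcripts alone.

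Tapbp (chromosome 17, 33915899 to 33929292, plus strand) encodes tapasin, which bridges the transporter and the heavy chain and edits the peptides bound. It had the highest gene total of the 10, 81.20 and 83.25 TPM from 3681 and 3284 counts. Its level also rested on short models. Tapbp-203, a 413-base incomplete coding model, held 60.98% and 57.98% of its TPM, Tapbp-202, a 649-base processed transcript, 26.37% and 25.16%, and the complete Tapbp-201, 2894 bases long, 11.48% and 15.52%. By counts, Tapbp-201 led with 51.7% and 61.3%, and complete coding transcripts gave 9.32 and 12.92 TPM. Tapbp-203 shares 61 bases with exons of Zbtb22, a zinc finger gene on the same strand with 39.10 and 39.81 TPM.

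The tapasin-related Tapbpl, also a peptide editor, had 1.18 and 1.41 TPM. Tapbp was above it by 5.18 (SE 0.135) on the log2(TPM + 1) scale (limma, adjusted p = 3.56e-10, n = 2), where 90.4% of 8003 genes differed from Tapbpl. With complete coding transcripts alone the value was 2.39.

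Of the lectin chaperones that hold unfolded heavy chains, Calr (calreticulin, chromosome 8, 84841850 to 84846934, minus strand) had 73.52 and 74.10 TPM from 10777 and 8305 counts. Canx (calnexin, chromosome 11, 50293961 to 50325673, minus strand) had 16.16 and 13.90 TPM from 4376 and 2875 counts. Calr was 4.55 and 5.33 times Canx, with a mean difference of 2.23 (SE 0.197) on the log2(TPM + 1) scale (limma, adjusted p = 5.38e-29, n = 2), where 87.1% of 8003 genes differed from Canx. Their complete transcripts Calr-201 (95.70% and 96.33%) and Canx-201 (98.39% and 98.54%) carried nearly all of the TPM. H2-D1-202 did the same for H2-D1 (99.19% and 99.89%), and B2m and Erap1 each had 1 model.

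In the list for peptide transport and loading, 7 of 8 genes reached 1 TPM in both libraries, all but Tap1. Its highest gene was Pdia3, the disulfide isomerase ERp57 of the loading complex, with 148.89 and 210.30 TPM as a gene total and 8.46 and 11.80 TPM from complete coding transcripts. Of 18 other chaperones and glycan-processing genes of the endoplasmic reticulum, 16 reached 1 TPM. As gene totals they were led by Vcp, the ATPase that extracts misfolded proteins (350.39 and 268.98 TPM), P4hb, a disulfide isomerase (235.35 and 236.27 TPM), and Derl1, a subunit of the export channel (106.44 and 121.37 TPM). From complete coding transcripts Vcp had 225.38 and 268.94 TPM, in the opposite order of the libraries. In replicate 1 this was below P4hb (234.86 TPM). The lowest was Uggt2, with 3 counts and 0.

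Erap1 (chromosome 13, 74639568 to 74693201, plus strand) had 0.02 TPM in each library, from 5 and 4 counts. Lnpep, the aminopeptidase that trims peptides in endosomes, had 1.13 and 0.92 TPM. The mean ratio of Erap1 to Lnpep was -0.99 (SE 0.0865) on the log2(TPM + 1) scale (limma, adjusted p = 7.23e-19, n = 2), where 97.2% of 8005 genes differed from Lnpep. This scale compresses such low levels, and a pseudocount of 0.1 gave -3.22. Of 9 trimming peptidases, 7 reached 1 TPM in both libraries, all but Erap1 and Lnpep. The highest were the cytosolic Npepps (37.82 and 53.89 TPM), Nrdc (37.36 and 35.09 TPM, listed under its older symbol Nrd1) and Tpp2 (20.57 and 19.87 TPM), as gene totals. From complete coding transcripts Nrdc led with 34.55 and 32.91 TPM, Npepps had 22.99 and 14.22 TPM, higher in replicate 1 where its gene total was higher in replicate 2, and Tpp2 had 4.06 and 2.01 TPM, below Thop1 and Dpp3.

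The proteasome genes that supply the peptides also held expressed and near-0 members. The constitutive catalytic subunit Psmb5 had 124.49 and 130.93 TPM and Psmb6 133.61 and 104.41 TPM. Their immunoproteasome counterparts were near 0, Psmb8 at 0.26 and 0.17 TPM from 14 and 8 counts, and Psmb9 at 0.07 and 0.01 TPM from 6 counts and 1 count. Psmb8 was lower than Psmb5 by -6.73 (SE 0.108) on the log2(TPM + 1) scale (limma, adjusted p = 2.87e-06, n = 2), where 95.6% of 8004 genes differed from Psmb5. Psmb9 over Psmb6 had too few counts for a test.

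The remaining couple of catalytic subunits was not called, with Psmb10 (immunoproteasome) at 5.96 and 5.81 TPM and Psmb7 (constitutive) at 6.53 and 5.41 TPM. Their mean difference was -0.01 (SE 0.181, limma, adjusted p = 0.946, n = 2), where 88.1% of 8003 genes differed from Psmb7. The activator Psme1, an interferon-inducible cap subunit, had 113.01 and 141.93 TPM as a gene total, and 46.22 and 41.36 TPM from complete coding transcripts, in the opposite order of the libraries. In all, 8 of 10 listed proteasome genes reached 1 TPM.

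**Figure D4:**
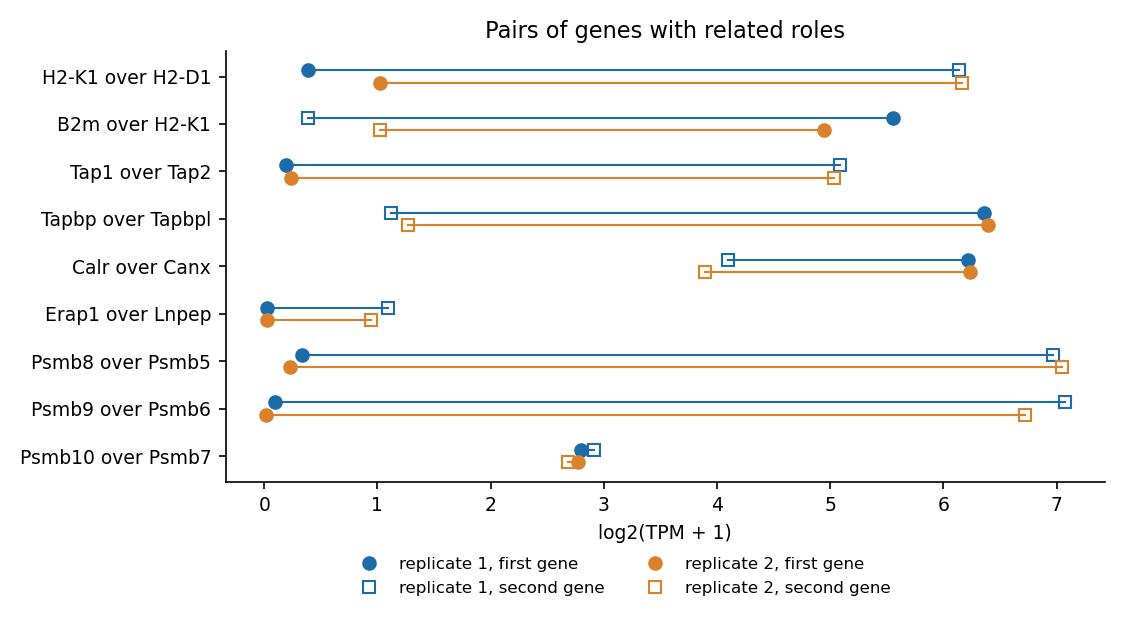
Levels of 9 couples of genes with related roles (vertical axis) on the log2(TPM + 1) scale (horizontal axis), in replicate 1 (blue) and replicate 2 (orange). Circles are the first-named gene and squares the second, joined within a library. In each couple but Psmb10 and Psmb7 the genes are apart by the same direction in both libraries.

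The lists around the pathway were read the same way, and their counts are of gene totals. Of 11 genes for interferon receptors and signalling, 10 reached 1 TPM, led by the kinase Jak1 (288.64 and 208.82 TPM as a gene total, 24.68 and 30.69 TPM from complete coding transcripts), the receptor chain Ifnar2 (33.26 and 40.13 TPM, and 11.99 and 11.80 TPM from complete coding transcripts, below Socs1 and Tyk2) and the inhibitor Socs1 (22.84 and 23.91 TPM). Usp18, itself interferon-induced, was lowest with 0.16 and 0.09 TPM. Of 22 interferon-induced genes, 4 reached 1 TPM and 11 had no counts. The highest were Ifi27 (9.99 and 6.21 TPM), the virus tether Bst2 (4.38 and 8.67 TPM) and Irgm1 (2.71 and 1.71 TPM), and Rsad2 was among those with 0. From complete coding transcripts Ifi27 had 2.16 and 2.23 TPM, below Bst2, which kept its values. None of 12 class II presentation genes reached 1 TPM in both libraries. The highest of them were Cd74, the invariant chain (2.30 and 0.43 TPM), Ifi30 (1.02 and 0.69 TPM, none of it from complete coding transcripts) and H2-Ab1, and H2-Ob had 0 counts. Of 9 matched ligands read by natural killer cells, 1 reached that level, Nectin2 with 11.28 and 17.50 TPM. Pvr, Clec2d and Cd48 had at most 2 counts in a library, and Ulbp1 had 0.

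**Figure D5:**
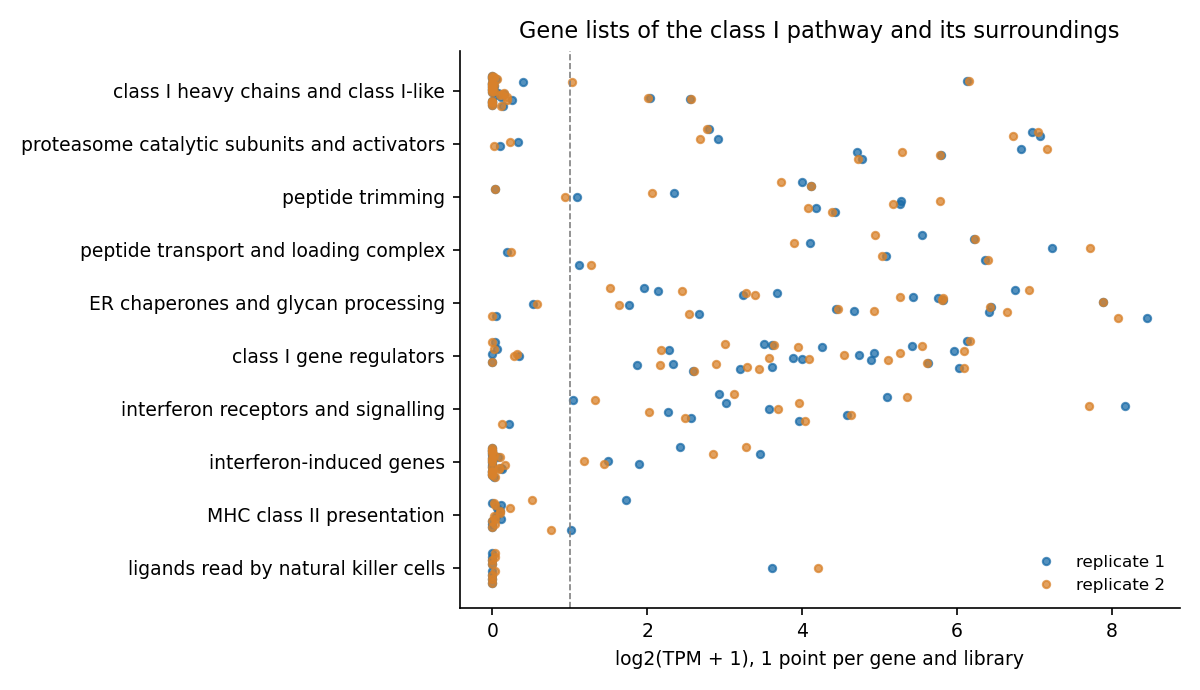
Each gene of the 10 lists (vertical axis) on the log2(TPM + 1) scale (horizontal axis), 1 point per gene and library, replicate 1 in blue and replicate 2 in orange. The dashed line is 1 TPM. Points of the class I heavy chain, interferon-induced, class II and natural killer ligand lists gather at 0, and those of the other lists lie mostly right of the line.

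Ordered by mean TPM, the genes ran Tapbp, Calr, H2-D1, B2m, Tap2, Canx, H2-K1, Tap1, Erap1 and Nlrc5. The ranges of the libraries overlapped between B2m and Tap2 and between no other neighbours. This order holds for gene totals. From complete coding transcripts alone it ran Calr (mean 70.87 TPM), H2-D1 (69.7), B2m (37.9), Canx (15.03), Tapbp (11.12), Tap2 (0.85), H2-K1 (0.325), Tap1 (0.115), Erap1 (0.02) and Nlrc5 (0), with overlapping ranges for Calr and H2-D1. With 2 libraries of 1 group no gene could be ranked by likeness of pattern.

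Replicate 2 was set against replicate 1 by an exact two-sided binomial test on rounded counts (Benjamini-Hochberg adjusted), which compares these libraries beyond counting noise, not conditions. It called 59.3% of 10445 genes, 30.4% as higher in replicate 1 and 28.9% as higher in replicate 2. The split moved with the scaling, from 3173 and 3020 genes to 3776 and 2423 with library totals and to 2989 and 3180 with DESeq2 size factors. All 8 pathway genes with at least 20 summed counts were called, 2 as higher in replicate 1 and 6 as higher in replicate 2. Erap1 and Nlrc5 were below that minimum. B2m was lower in replicate 2 by a log2 ratio of -0.59 (95% interval -0.69 to -0.48, adjusted p = 2.62e-30), and Canx by -0.15. Tapbp (0.29), Tap2 (0.19), H2-D1 (0.09) and Calr (0.08) were higher in replicate 2 by these counts. The TPM of Tap2 went the other way, with 33.03 in replicate 1 and 31.66 in replicate 2. By counts, H2-K1 was higher in replicate 2 by 1.22 (0.59 to 1.88, adjusted p = 0.000193) and Tap1 by 1.56 (0.56 to 2.63, adjusted p = 0.00270), both from few counts. In TPM, Tap1 had 0.14 and 0.18, a smaller difference than by counts, and H2-K1 had 0.31 and 1.03, a larger one. Scaled by library totals, H2-D1 (0.03, adjusted p = 0.166) and Calr (0.02, adjusted p = 0.465) were not called. Among pathway and list genes with a mean of at least 100 counts, Ifngr2, a chain of the interferon gamma receptor, had the largest log2 ratio in favour of replicate 2 (1.10) and Cd74 in favour of replicate 1 (-2.35).

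Total expected counts were 73681318 and 56056404. All 8 erythroid markers were above 1 TPM, with Gata1, which the values do not separate from the introduced fusion, at 2036 and 1608 TPM. None of 5 B cell, 5 T and natural killer cell, 6 macrophage and dendritic cell and 6 granulocyte precursor markers, nor Ptprc, reached 1 TPM in both libraries. Summed levels in replicates 1 and 2 were 0.68 and 0.14 TPM for B cells, 0.14 and 0.34 for T and natural killer cells, 0.53 and 0.48 for macrophages and dendritic cells, and 0.31 and 11.02 for granulocyte precursors, with S100a8, Cd14, Itgax, Cd3g and Klrb1c at 0 counts. The granulocyte precursor genes Mpo (32 and 507 counts), Prtn3 (3 and 181) and Elane (2 and 130) were thus higher in replicate 2, as were H2-K1 and Tap1. The B cell marker Cd79a (29 and 4 counts) was lower in replicate 2 by a log2 ratio of -2.41 (binomial test, adjusted p = 0.000684), the same way as Cd74. The part of these markers in those differences was not tested.

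Several of these genes overlap others, and the use of strand in counting was not given in the sources used here. Tap1 overlaps Psmb9 by 212 bases on opposite strands, B2m lies within the span of Patl2 (0.59 and 0.52 TPM) on the other strand, and Erap1 overlaps Cast by 834 bases on opposite strands. The antisense genes Gm15821 and Gm20496 over Tap2 held 1 count in all, and Gm19412 over Tapbp held 75 and 89 counts.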

How the data were processed

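Poly(A) RNA of 2 libraries of 1 group was analysed. For each library the authors deposited gene and transcript tables on mm10 with GENCODE M4, per the deposited description files. Aligner, quantifier and strand handling: not given in the sources used here. Expected counts, as deposited, are estimates of fragments per feature, the deposited TPM values are length-corrected and sum to 1000000, and the deposited percent values give each transcript's share of its gene's TPM, per the file headers.

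Rows named by a number (26248) and spike-ins (97), which held 9 counts, were left out. Names, coordinates and transcript classes were read from GENCODE M21 (same build), which matched 42462 of 43346 gene rows with 99.8% of counts. Those gene models may differ from the ones used for counting. Promoters came from RefSeq GRCm38.p6 and were aligned with Biopython 1.88.

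Expected counts were rounded. The exact binomial test between libraries was two-sided, used totals scaled by TMM (edgeR 4.0.16) and took genes whose counts summed to 20 or more. Couples of genes were compared with limma 3.58.1 on log2(TPM + 1) differences within libraries, over genes with at least 1 TPM in both and the genes of the couple whatever their level, called at an adjusted p of 0.05 (Benjamini-Hochberg over all genes of the fit). With 2 libraries, the prior degrees of freedom ran from 3.84 to 86.8 in 5 fits and were unbounded in 3. The size of these p-values is thus unstable, and only their side of the threshold was used. The SEs given for couples are moderated too, with a spread drawn partly or wholly from other genes. They can differ from the spread between the 2 libraries. The pseudocount shrinks ratios of low genes. Intervals are at 95% and, like the floor of 3 counts, cover counting error only.

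The members, lists, couples and tests were chosen with earlier results of these data known. Genes named are the members, the 3 highest and the lowest of each list (where several tied at 0, some of them), both genes of each couple, leading transcripts and those with at least 10% in both libraries, and, among genes averaging 100 or more counts, those most different between libraries. Others were named after their values were seen: neighbours, overlapping genes, further regulators, Psme1, other natural killer ligands and markers. Raet1a, Raet1b, Raet1c and H60a were not matched and not analysed here.

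On simulated data the binomial step over 10441 genes called 100% of 50 genes at a fold of 2, 94% at 0.5, 74% at 1.25 and 74% at 0.8, and 0.0976% of unchanged genes, with counting noise alone. The limma step over 8004 genes called 96% of 50 couples at a log2 ratio of 1, 100% at 2 and at 4, and 6% with no difference. Those couples were drawn from well-expressed genes, and all genes were given the same spread. Of the tested couples only Calr and Canx were both at such levels, so these rates do not cover the other couples. Alternatives were other count minimums, library totals, DESeq2 1.42.0 size factors, posterior means, the pseudocount, no filter, other TPM thresholds, globin and mitochondrial genes left out of the total, shares of counts, and leaving out each replicate. R 4.3.3, Python 3.11.15, numpy 2.4.6, pandas 2.3.3 and matplotlib 3.10.9 were used.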

Additional observations from a re-analysis of the deposited data

How the results depend on the processing

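Of the differences of the 8 tested members between libraries, 37 of 39 values under other settings kept their direction and side of the threshold. The exceptions were H2-D1 (0.03) and Calr (0.02) with library totals. The number of genes called between libraries ran from 6082 (count minimum of 50) to 6302 (count minimum of 10). The 7 called couples kept direction and, where a test could be made, their call in all 42 values, though the sizes moved. Counting complete coding transcripts alone, added after seeing the data, gave Tap1 over Tap2 -0.73 and Tapbp over Tapbpl 2.39. The same setting turned Psmb10 over Psmb7 from -0.01 to 0.36 (limma, adjusted p = 0.209), not called either way; the cause was not tested. It also left 5 members at 1 TPM in both libraries, without Tap2, where thresholds of 0.5 and 5 TPM and posterior means each left 6. Leaving out a library gave H2-K1 over H2-D1 values of -5.75 and -5.14, and for Psmb10 over Psmb7 -0.11 and 0.09. With globin and mitochondrial genes out of the total, H2-D1 stood at a mean of 97.0 TPM in place of 70.0. The leading transcript of H2-K1 by mean share, H2-K1-205, held a mean of 57.5% of TPM, and 27.1% by posterior means. It held 73.85% in replicate 1 and 41.18% in replicate 2, where H2-K1-206 was above it with 58.82%. By posterior means H2-K1-206 held a mean of 29.8%, so H2-K1 had no stable leading transcript. Counts of 34 and 58 for H2-K1, 13 and 28 for Tap1 and 5 and 4 for Erap1 limit the precision of these levels and shares. No paired analysis was possible because the series has 1 group.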
